A study of Mus musculus with 24 samples.

Results

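The comparison described here set uninjected Xinβ knockout (KO) mouse hearts against uninjected wild type (WT) littermate hearts, and its members were the 8 libraries, 4 KO and 4 WT, that the sample labels give these genotypes with no AAV9 injection, out of 24 libraries in the series. Each library came from a separate heart, taken from the ventricles (heart apex) of pups on the C57BL6 background at postnatal day 7.5. The KO is a germline allele, made in R1 embryonic stem cells, in which a LacZ-Neo cassette replaces a stretch spanning parts of neighbouring exons and the intron between them, so Xinβ was absent from every cell type of the animal and not from cardiomyocytes alone. The other 16 libraries came from KO and WT pups given AAV9 at postnatal day 1, which carried GFP or an activated YAP under a cardiac troponin T promoter, and of these the 8 GFP libraries are read beside the uninjected contrast below.

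Xinβ, the product of Xirp2, is an actin-binding adapter of the intercalated disc, the junction that couples neighbouring cardiomyocytes mechanically and electrically. In the first days after birth mouse cardiomyocytes leave the cell cycle, shift from glycolysis to fatty acid oxidation and exchange fetal for adult isoforms of contractile proteins. The Hippo kinases restrain YAP, a coactivator of the TEAD factors that promotes cardiomyocyte division, and the study examined whether Xinβ acts in that pathway.

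Depth ranged from 20490875 to 31154155 reads on listed genes per library. Of 15667 genes listed, 15598 had over 1 CPM (the authors' normalised read count, scaled for library size) in at least 4 of the 8 libraries and were tested with limma on log2(CPM + 1). A fold change is the KO mean minus the WT mean on that scale, which understates changes of low genes, and a gene is called at a Benjamini-Hochberg adjusted p under 0.05 over all genes tested. KO replicates 1 and 4 stood apart from the other KO libraries. On the first principal component (43.4% of the variance) KO replicate 4 lay at -5.5, between the WT libraries (-29.9 to -19.9) and the other KO libraries (23.7 to 51.5), and its mean correlation was 0.972 with the WT libraries but 0.958 with its own group. KO replicate 4 also had 3.68 CPM of Ddx3y, a gene of the Y chromosome, against 21.7 to 56.2 CPM in the other 7. The study describes each RNA-seq group as an equal mixture of both sexes, and the labels give no sex for a heart. Ddx3y levels did not divide the libraries evenly within either group, and the sex of each heart was not tested. KO replicate 1 read short transcripts higher than its group (median deviation 0.45 on the log2 scale for the shortest of 4 equal length classes) and long transcripts lower (-0.46 for the longest class), where every other library stayed within 0.19 of its group. Counts that rest on these libraries are given with and without them, and their part in each result was not tested.

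Xirp2 (ENSMUSG00000027022, GRCm38 chr2:67446002-67526614, plus strand) had the largest fall and the smallest p of all genes. Its transcript was read at 0.291, 0.692, 0.450 and 0.519 CPM in the KO hearts (replicates 1 to 4, the order used throughout), where the WT hearts had 131, 149.8, 168 and 106 CPM. Every KO library was below 1 CPM and no WT library below 106 CPM, a log2 fold change of -6.54 (SE 0.16, adjusted p = 1.8e-07). Xirp1, which encodes the paralogous disc protein Xinα, was at 296 ± 41.7 CPM (SD, n = 4) in KO and 248 ± 14.7 CPM in WT, with overlapping groups (log2 fold change 0.25, adjusted p = 0.24). The genes around Xirp2 were called about as often as genes elsewhere: 5 of the 101 other genes tested within 10 Mb (4.95%) were called, beside 6.69% of all genes tested.

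Across the transcriptome 1044 of 15598 genes (6.69%) were called, 504 higher in KO (3.23%) and 540 lower (3.46%), and 959 of them were protein coding. Counts of list members below are to be read beside these shares. The median size of the change was 0.86 on the log2 scale among called genes and 0.19 among all genes tested. Among called genes 197 were higher and 171 lower by at least 1 on the log2 scale. Groups that did not overlap were seen for 2565 genes (16.4%). KO libraries varied more than WT libraries, with a median SD per gene of 0.28 against 0.12 on the log2 scale and the larger SD in KO for 83.6% of genes. Without KO replicate 4 the count of called genes was 2098, without KO replicate 1 it was 1761, and without both it was 3667, which held 1008 of the 1044. Leaving out any other library lowered it, to 527 and 607 without KO replicates 2 and 3 and to 379, 444, 410 and 513 without WT replicates 1 to 4. The deposited values sum to more in every KO library than in any WT library, and scaling every library to an equal sum moved the median change of all genes from 0.00 to -0.12 and the calls to 353 higher and 1241 lower of 1594.

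**Figure D1:**
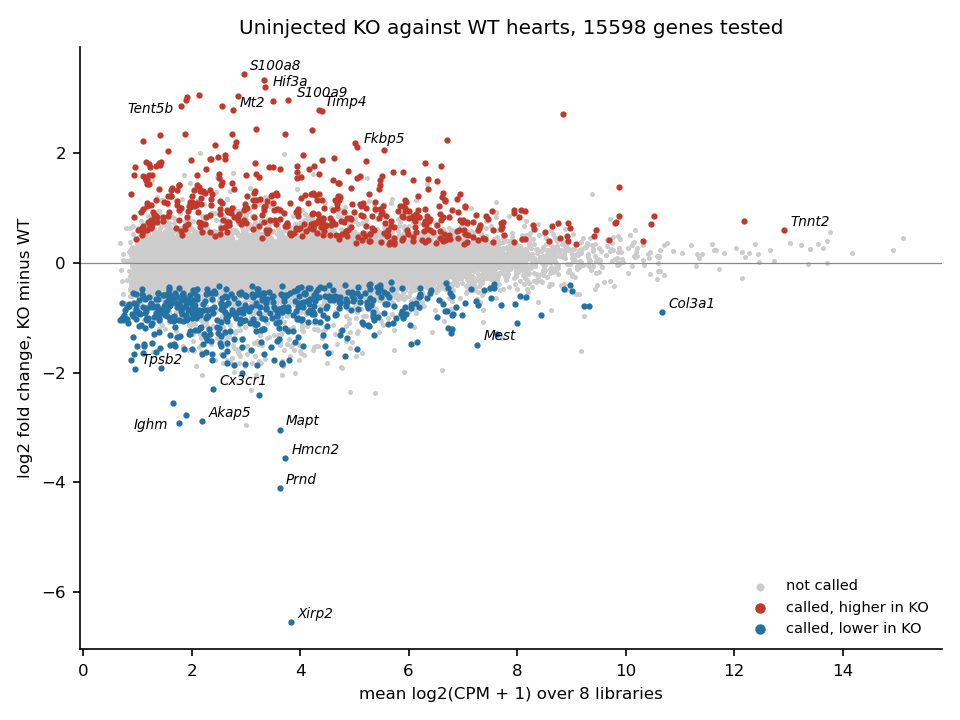
Log2 fold change (KO minus WT, vertical axis) of each of the 15598 genes tested against its mean log2(CPM + 1) over the 8 libraries (horizontal axis), with called genes in red (504 higher) and blue (540 lower) and the rest in grey. Xirp2 lies alone at -6.54, and Tnnt2 stands out among abundant genes that rose.

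The genes with the largest rises included calcium-binding proteins of neutrophils, metallothioneins, protease inhibitors and metabolic enzymes. S100a8, which encodes a calprotectin subunit of neutrophils, was at 36.4, 21, 28.3 and 17 CPM in KO and at 1.12, 3.37, 0 and 2.43 CPM in WT (log2 fold change 3.44, SE 0.43, adjusted p = 0.0036). Hif3a, a member of the hypoxia-inducible factor family, was at 17.1, 49.1, 55.7 and 19.5 CPM in KO and at 1.81, 3.16, 1.38 and 2.72 CPM in WT (log2 fold change 3.33, SE 0.39, adjusted p = 0.0027). Both genes were higher in each KO library than in any WT library, S100a8 most in KO replicate 1 and Hif3a most in KO replicates 2 and 3. Xdh, xanthine oxidoreductase of purine breakdown, rose by 3.21 on the log2 scale, the sodium-dependent steroid sulfate transporter gene Slc10a6 by 2.97 and complement C3 by 2.86. The protease inhibitors Serpina3n (6.32, 10.9, 46 and 5.23 CPM in KO, at most 0.783 CPM in WT) and Serpina3g (log2 fold change 3.02) belong to a cluster of near-identical genes, so their reads may be shared among copies. Tent5b, a non-canonical poly(A) polymerase, showed the least spread of these, with 6.79 to 9.29 CPM in KO and 0.206 to 0.398 CPM in WT (log2 fold change 2.85, SE 0.13, adjusted p = 2.1e-05). Slc10a6, Serpina3n, Serpina3g and Tent5b exceeded 1 CPM in the KO libraries alone, so they had to be high in KO to be tested. Timp4, an inhibitor of matrix metalloproteinases that is abundant in heart, was at 61.6, 83.2, 78.6 and 18.1 CPM in KO and at 6.39 to 7.08 CPM in WT (log2 fold change 2.78, adjusted p = 0.0070).

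Below Xirp2, the largest falls were found for Prnd, Hmcn2, Mapt, Ighm and Akap5. Prnd, which encodes the prion-like protein doppel, was at 0.389, 5.40, 0.05 and 7.26 CPM in KO and at 47.6, 42.8, 70.4 and 44.2 CPM in WT (log2 fold change -4.11, SE 0.63, adjusted p = 0.0078). Hmcn2, encoding the extracellular matrix protein hemicentin-2, was at 3.50, 5.24, 3.0 and 0.943 CPM in KO and at 40.5 to 49.1 CPM in WT (log2 fold change -3.56, SE 0.31, adjusted p = 8.6e-04). For Hmcn2 the lowest KO library was replicate 4, whereas for Prnd replicates 1 and 3 were far below replicates 2 and 4. Mapt, the gene of the microtubule protein tau, fell by 3.04 on the log2 scale, and Akap5, an anchor of protein kinase A, fell by 2.88, from 9.48 to 15.1 CPM in WT to at most 0.943 CPM in KO. Cdh23, an atypical cadherin, fell by 2.77 and Itgb6, the integrin β6 subunit, by 2.01. Itgb6 lies 6.72 Mb from Xirp2 on the same chromosome, and whether this position bears on its fall was not tested. Ska2, a component of the spindle and kinetochore associated complex, was at 2.62, 2.90, 2.65 and 4.62 CPM in KO and at 19.6 to 21.7 CPM in WT (log2 fold change -2.40, SE 0.16, adjusted p = 3.0e-04), so KO replicate 4 was low for this gene too. Tpsb2, a tryptase of mast cells, was at 0 in all 4 KO libraries and at 3.37, 3.85, 1.15 and 3.59 CPM in WT, at least 22.3-fold lower in KO when each KO library is set at a floor of 3 reads, which covers counting error only. Xirp2, Ighm, Akap5, Cdh23 and Tpsb2 exceeded 1 CPM in the WT libraries alone, so they had to be high in WT to be tested.

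**Figure D2:**
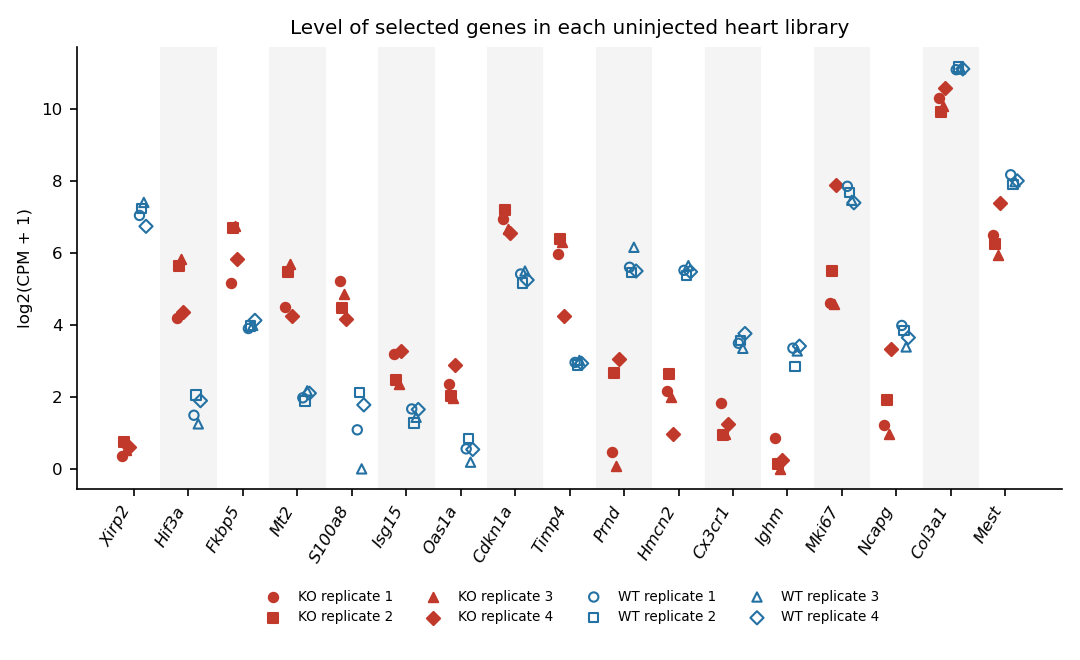
Level of 17 genes as log2(CPM + 1) (vertical axis) in each of the 4 KO (filled red) and 4 WT (open blue) libraries, with 1 symbol per replicate. Xirp2, Hmcn2, Prnd, Cx3cr1 and Ighm are lower in every KO library and Hif3a, Fkbp5, Mt2, S100a8 and Oas1a higher, while the Mki67 level of KO replicate 4 (diamond) lies just above the WT libraries.

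Genes that respond to glucocorticoids formed the list with the largest median rise apart from leukocyte markers. These genes are known to be activated by the glucocorticoid receptor in many tissues. Of 19 such genes tested, 13 rose and none fell, with a median log2 fold change of 1.53, beside 0.00 over all genes tested. Fkbp5, a co-chaperone of steroid receptors, was at 34.6, 102, 107 and 55.7 CPM in KO and at 13.9, 14.7, 14.9 and 16.5 CPM in WT (log2 fold change 2.11, SE 0.32, adjusted p = 0.0075). The metallothionein gene Mt2 was at 21.8, 43.5, 50.8 and 18.1 CPM in KO and at 2.71 to 3.50 CPM in WT (log2 fold change 2.95, SE 0.31, adjusted p = 0.0016). Per1, which encodes a repressor of the circadian clock, was at 118, 92.0, 107 and 104 CPM in KO and at 26.1 to 45.2 CPM in WT (log2 fold change 1.65, SE 0.17, adjusted p = 0.0015). KO libraries lay above all WT libraries for each of these genes, with KO replicates 1 and 4 lowest for Fkbp5 and Mt2 but not for Per1. The transcription factor gene Zbtb16 was at 96.2, 81.9 and 115 CPM in KO replicates 2 to 4 but at 8.65 CPM in KO replicate 1, close to the WT range of 6.77 to 7.62 CPM, so its call (adjusted p = 0.047) held in 1 of the 8 fits that each left out 1 library, that without KO replicate 1 (adjusted p = 1.8e-05). Tsc22d3, a classical glucocorticoid target also known as Gilz, was not called (105, 72.9, 101 and 42 CPM in KO, 32.7 to 61.9 CPM in WT, adjusted p = 0.24). Of 18 circadian clock genes tested Per1 alone was called. Without KO replicate 4, and likewise without both KO replicates 1 and 4, 14 genes of the glucocorticoid list were called, all higher.

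Genes of fasting metabolism and lipid use rose as well. Of 17 tested targets of the PPAR receptors that respond to fasting, 12 rose and none fell (median log2 fold change 0.92). Angptl4, a secreted inhibitor of lipoprotein lipase, rose by 1.35 (SE 0.21, adjusted p = 0.0079), Acot1, a fatty acyl-CoA thioesterase with a near-identical neighbour, by 1.81 (adjusted p = 0.0054) and Fbp2, a fructose bisphosphatase of muscle, by 1.34 (adjusted p = 0.0062). Pdk4, the kinase that inhibits pyruvate dehydrogenase, was higher in each KO library (569.7 to 1744 CPM) than in any WT library (336 to 477 CPM), but its adjusted p was 0.0504. All 24 fatty acid oxidation genes tested had a positive fold change (median 0.40), and 11 rose. Among them Cd36, the fatty acid uptake receptor, was at 949.7, 1399.7, 1438 and 902 CPM in KO and at 637 to 787 CPM in WT (log2 fold change 0.73, adjusted p = 0.039), and Lpl, lipoprotein lipase, at 1678 to 2394 CPM in KO and 986 to 1193 CPM in WT (log2 fold change 0.86, adjusted p = 0.012). Slc27a1 and Decr1, a fatty acid transporter and a mitochondrial dienoyl-CoA reductase, rose by 0.95 and 0.73. Cpt1b, the muscle form of carnitine palmitoyltransferase, had overlapping groups (log2 fold change 0.03, adjusted p = 0.96). The count of called fatty acid oxidation genes ran from 1 to 16 when 1 library was left out, and under the scaling to an equal sum it was 5, with a median of 0.26.

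No respiratory chain, ribosomal protein or proteasome gene was called, and 3 of 26 glycolysis genes were (11.5%, beside 6.69% of all genes tested). Of these, Slc2a1, the glucose transporter GLUT1 (15 to 17 CPM in KO, 8.87 to 11 CPM in WT, adjusted p = 0.011), and Gpi1 (adjusted p = 0.033) rose and Hk2, hexokinase 2 (adjusted p = 0.047), fell. None of 77 nuclear and 13 mitochondrial genes of the respiratory chain was called by limma, and 3 of each had an unadjusted p under 0.05. The edgeR quasi-likelihood test called 0 and 1 of them and the edgeR exact test and DESeq2 1 and 1. Among 82 ribosomal protein genes and 33 proteasome genes limma called none (1 and 3 at an unadjusted p under 0.05), and neither did edgeR or DESeq2. The mean level of nuclear respiratory chain and ribosomal protein genes was high in KO replicate 1 alone, 0.78 and 0.98 above the WT mean on the log2 scale where the other KO libraries lay between -0.05 and 0.10. Of 12 muscle atrophy genes 3 rose (25%), Bnip3, Foxo3 and Fbxo21, and the muscle ubiquitin ligase genes Fbxo32 (adjusted p = 0.71) and Trim63 (adjusted p = 0.49) were not called. Of 24 antioxidant genes 4 rose (16.7%), led by the glutathione transferase gene Gstm1 at 94.6, 83.6, 87.2 and 53.6 CPM in KO and 22.8 to 29.5 CPM in WT (log2 fold change 1.59, SE 0.18, adjusted p = 0.0024).

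Many interferon-stimulated genes rose in the uninjected KO hearts. Interferons signal through STAT and IRF factors, which bind repeats of the letters GAAA in the promoters of antiviral genes. Promoters of 4 listed genes are shown because they carry such repeats and their genes rose together. The letters GAAANNGAA, read on both strands of the RefSeq promoters (GRCm38.p6, 250 bases before to 50 after a start site), were found in 21 of 33 promoters (63.6%) of 30 interferon list genes that matched and in 8.56% of all 32851 promoters. They were in 12 of 16 promoters (75%) of genes called and in 9 of 17 (52.9%) of genes not called. In the following stretches, 5′ to 3′ along the gene's strand, capitals mark a match on either strand; a match is a description of letters and not a site.
Isg15, chr4:156200868-156200904, minus strand: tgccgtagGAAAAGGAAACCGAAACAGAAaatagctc
Ifit1, chr19:34640772-34640821, plus strand: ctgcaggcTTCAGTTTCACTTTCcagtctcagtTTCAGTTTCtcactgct
Ifit3, chr19:34583366-34583443, plus strand: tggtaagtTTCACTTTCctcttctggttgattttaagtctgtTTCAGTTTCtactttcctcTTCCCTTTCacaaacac
Ifit3b, chr19:34607762-34607839, plus strand: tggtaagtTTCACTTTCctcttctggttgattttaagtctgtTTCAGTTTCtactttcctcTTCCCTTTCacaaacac

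Of 43 interferon-stimulated genes listed, 40 passed the filter on low values, 2 of them, Oas1a and Oasl1, through the KO libraries alone. Among the 40, 23 rose and none fell, with a median log2 fold change of 0.83 and 29 with groups that did not overlap. Isg15, a ubiquitin-like protein induced by interferon, was at 8.06, 4.55, 4.15 and 8.63 CPM in KO and at 2.17, 1.42, 1.70 and 2.14 CPM in WT (log2 fold change 1.31, SE 0.23, adjusted p = 0.012). Oas1a, an oligoadenylate synthetase that senses double-stranded RNA and had to be high in KO to be tested, was at 4.13, 3.10, 2.95 and 6.41 CPM in KO and at 0.471, 0.798, 0.138 and 0.453 CPM in WT (log2 fold change 1.78, SE 0.22, adjusted p = 0.0035). Iigp1, an interferon-inducible GTPase, was at 14.1, 18.4, 25.1 and 31.8 CPM in KO and at 3.45 to 7.67 CPM in WT (log2 fold change 1.72, SE 0.28, adjusted p = 0.0093). Every KO library was above every WT library for these genes, and KO replicate 4 was the highest of the 8 for each. Ifit1 rose by 1.33 and Ifit3, for which Ifit3b is a near-identical copy, by 1.41. The mean level of the list was 0.72, 0.70, 0.75 and 1.25 above the WT mean in KO replicates 1 to 4 on the log2 scale. Without KO replicate 4 the list had 24 genes higher and 1 lower, and leaving out any 1 library gave 13 to 25 called, with 13 without WT replicate 1 or 3 and 14 without WT replicate 2.

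Among the factors that drive these genes and other immune lists, single genes rose. Irf7, the interferon regulatory factor that amplifies interferon production, was at 9.96, 10.1, 9.09 and 10.9 CPM in KO and at 2.68, 3.02, 2.99 and 5.03 CPM in WT (log2 fold change 1.34, SE 0.17, adjusted p = 0.0035). Stat2, Irf9 and Socs3 rose by 0.79, 0.76 and 0.74, the only other calls among 23 IRF, STAT and related signalling genes (17.4% with Irf7, beside 6.69% of all genes tested). Of 18 genes of MHC class I and antigen processing 5 rose (27.8%, median 0.49). When 1 library was left out 1 to 4 were called, with 1 without WT replicates 1, 2 or 3, and 2 or 3 without KO replicates 1, 2 or 3. Those that rose included the class I heavy chains H2-K1 (0.90, adjusted p = 0.016) and H2-D1 (0.77, adjusted p = 0.012), whose reads may be shared among close copies. Their light chain gene B2m was not called (adjusted p = 0.13). Of 21 NF-κB target genes 4 rose (19%): Ccl2, a chemokine that attracts monocytes, was at 4.76, 4.58, 9.99 and 7.59 CPM in KO and at 1.11 to 2.12 CPM in WT (log2 fold change 1.6, adjusted p = 0.0069), and Icam1, an adhesion molecule for leukocytes, at 16.4 to 32.5 CPM in KO and 9.20 to 11.1 CPM in WT (log2 fold change 1.18, adjusted p = 0.011). The NF-κB inhibitor gene Nfkbia rose by 0.97 and the neutrophil chemokine gene Cxcl1, which passed the filter through the KO libraries alone, by 1.03.

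**Figure D3:**
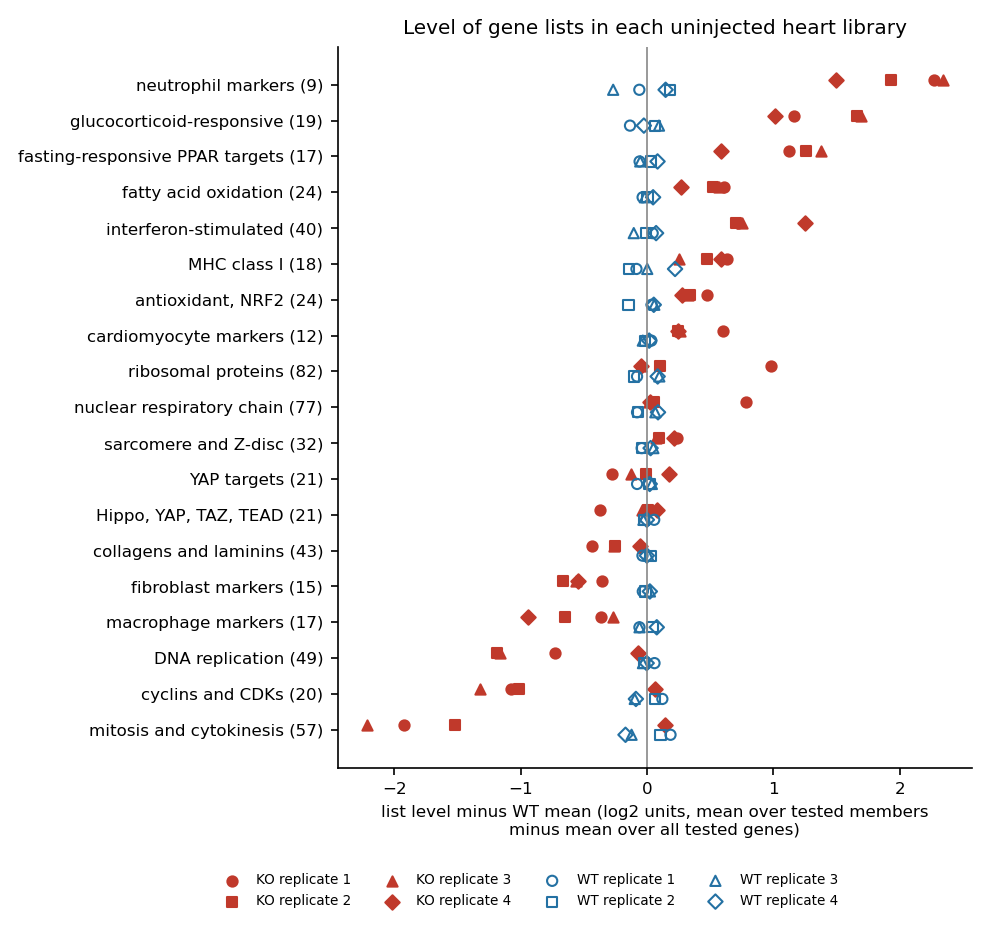
Mean log2 level of the tested members of each gene list in each library, after subtracting the library's mean over all genes tested and the WT mean of the list (horizontal axis, log2 units), with the number of tested members in brackets. All 4 KO libraries are above WT for neutrophil, glucocorticoid, fasting and interferon lists, and for mitosis KO replicate 4 (0.14) lies with WT where the other KO libraries are at -2.22 to -1.52. Of the 9 neutrophil markers 7 passed the filter through the KO libraries alone, so they had to be high in KO, as had 2 of the 40 interferon genes.

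Leukocyte markers changed in opposite directions. In bulk tissue fewer cells of a type and less RNA per cell cannot be told apart, here and for every marker list below. All 9 neutrophil markers that passed the filter rose, but 7 of these passed through the KO libraries alone and 9 of the 18 listed, among them Ly6g, Mpo and Elane, did not pass. S100a9, the partner of S100a8, was at 56.7, 31.8, 45 and 24.7 CPM in KO and at 3.04, 5.55, 3.73 and 3.67 CPM in WT (log2 fold change 2.98, SE 0.26, adjusted p = 8.6e-04). Lcn2, an iron-scavenging protein of neutrophil granules, and Ngp, neutrophilic granule protein, rose by 2.32 and 1.84. The summed level of the 9 markers was 56.3 to 121 CPM in KO and 5.24 to 11.7 CPM in WT. Of 17 macrophage markers tested, 8 fell and none rose (median -0.71). Without KO replicate 4 the list had 3 genes higher and 6 lower, and 3 genes were called when KO replicate 2 or any 1 of the WT libraries was left out. Csf1r, the receptor for the macrophage growth factor CSF1, was at 10.2, 6.16, 8.89 and 7.54 CPM in KO and at 22.3, 23.8, 21.5 and 27 CPM in WT (log2 fold change -1.43, SE 0.16, adjusted p = 0.0020), and Cx3cr1, the fractalkine receptor, at 0.922 to 2.53 CPM in KO and 9.20 to 12.6 CPM in WT (log2 fold change -2.30, SE 0.20, adjusted p = 8.6e-04). Of the 4 macrophage markers with a positive fold change the largest was that of Lyve1, a hyaluronan receptor of resident macrophages and lymphatic vessels, at 7.0, 11.8, 12.7 and 5.56 CPM in KO and 3.51 to 5.20 CPM in WT (log2 fold change 0.94, adjusted p = 0.054). Adgre1, which encodes F4/80, fell by 1.3 and Fcrls, an Fc receptor-like gene of macrophages that was not on the list, by 2.56. Fcrls passed the filter through the WT libraries alone, so it had to be high in WT to be tested. Ighm, the immunoglobulin μ chain, and Cd79b, a subunit of the B cell receptor, were the lymphocyte genes that passed the filter, through the WT libraries alone, out of 13 listed. Ighm was at 0.826, 0.0988, 0 and 0.189 CPM in KO and at 9.23, 6.21, 8.69 and 9.64 CPM in WT (adjusted p = 3.2e-04). No erythroid marker of 12 tested was called by limma or had an unadjusted p under 0.05.

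Some fibroblast and matrix genes fell. Of 15 fibroblast markers 7 fell and none rose (median -0.74), and of 43 collagen and laminin genes 10 fell and 2 rose (median -0.30). When 1 library was left out 4 to 9 and 7 to 19 of them were called, fewest without WT replicate 1 or 2. Col3a1, collagen III of the interstitial matrix, was at 1259, 968, 1086 and 1521 CPM in KO and at 2185, 2297, 2209.8 and 2218 CPM in WT (log2 fold change -0.90, SE 0.14, adjusted p = 0.0079). Col15a1, a collagen of vessel basement membranes, was at 145 to 225 CPM in KO and 335 to 401 CPM in WT (log2 fold change -1.10, adjusted p = 0.0043). Col1a2 fell by 0.79, Col14a1 by 1.28 and Islr, a fibroblast surface protein gene, by 1.14, and no KO library reached a WT library for any of the 5. The defining fibroblast genes Pdgfra (46.3 to 79.9 CPM in KO, 67.4 to 75.9 CPM in WT, adjusted p = 0.44) and Tcf21 (14.7 to 28.4 CPM in KO, 21.7 to 22.1 CPM in WT, adjusted p = 0.76) were not called. The 2 that rose were Lamb3, a laminin chain (log2 fold change 1.28, adjusted p = 0.0079), and Col23a1 (0.98, adjusted p = 0.032). Of 25 other matrix genes Hmcn2 alone was called, and Postn, periostin, was at 295 to 780.4 CPM in KO, highest in KO replicate 4, and 804 to 915 CPM in WT (adjusted p = 0.058, and 7.5e-04 without KO replicate 4). Among 30 matrix remodelling genes 5 rose, with Timp4 and the neutrophil collagenase and gelatinase genes Mmp8 and Mmp9 first, of which Mmp8 and Mmp9 passed the filter through the KO libraries alone, and Adamts17 and Mmp15 fell by 1.25 and 0.63.

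Endothelial genes changed in both directions, 3 higher and 4 lower of 27 tested (25.9%, beside 6.69% of all genes tested). Vwf, von Willebrand factor, was at 96.2, 135, 205 and 174 CPM in KO and at 58.4, 64.8, 60.6 and 71.2 CPM in WT (log2 fold change 1.19, SE 0.21, adjusted p = 0.013). Plvap, which forms the diaphragms of fenestrated capillaries, rose by 1.25 (adjusted p = 0.0081). Aplnr, the apelin receptor, was at 87.1, 60.5, 71.9 and 74.6 CPM in KO and at 162, 166, 161 and 189.7 CPM in WT (log2 fold change -1.20, SE 0.12, adjusted p = 0.0015). The transcription factor gene Sox7 fell by 1.15, Cd34 by 0.75 and Kdr, VEGF receptor 2, by 0.60, and Pecam1, expressed by all endothelial cells, had overlapping groups (log2 fold change 0.07, adjusted p = 0.68). The retinol-binding protein gene Rbp7 was among the 10 genes with the smallest p, at 27.7 to 34.8 CPM in KO and 7.81 to 9.93 CPM in WT (log2 fold change 1.70, SE 0.12, adjusted p = 3.0e-04). Of 15 mural cell markers Myh11, smooth muscle myosin, alone was called (-0.53, adjusted p = 0.030). Fabp4 rose by 0.86 (adjusted p = 0.023), the only one of 6 adipose markers that passed the filter.

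Mitosis genes were low in KO replicates 1 to 3 and on average at WT level in KO replicate 4. Promoters of 3 mitosis genes are shown because their levels followed that order, without a call, and they carry the letters TTTGAA and CCAAT that are known from cell cycle promoters. Read on both strands, both were found in 30 of 53 promoters (56.6%) of the 48 mitosis list genes that matched and in 6.95% of all promoters. Capitals mark TTTGAA and CCAAT matches on either strand, and the 2 sets of letters do not overlap in them.
Mki67, chr7:135716464-135716575, minus strand: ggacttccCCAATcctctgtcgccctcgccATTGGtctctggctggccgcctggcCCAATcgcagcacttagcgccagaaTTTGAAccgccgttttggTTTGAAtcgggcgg
Kif11, chr19:37376329-37376376, plus strand: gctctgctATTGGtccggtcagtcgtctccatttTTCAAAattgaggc
Prc1, chr7:80294406-80294459, plus strand: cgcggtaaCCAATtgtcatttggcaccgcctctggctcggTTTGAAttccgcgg

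Mki67, the proliferation marker Ki-67, was at 23.4, 44.1, 23 and 238 CPM in KO and at 230.2, 203, 176 and 167 CPM in WT. The first 3 KO libraries were far below the WT range and KO replicate 4 was above it, and the gene was not called (log2 fold change -1.95, SE 0.64, adjusted p = 0.11). Kif11, a mitotic kinesin, followed the same order, with 6.61, 9.49, 5.05 and 40.9 CPM in KO and 35.5 to 49.4 CPM in WT (adjusted p = 0.071), as did Prc1, a regulator of cytokinesis (adjusted p = 0.13). Of 57 mitosis and cytokinesis genes 56 had a negative fold change (median -1.44), 53 were lower at an unadjusted p under 0.05, and 2 passed the adjusted test: Ncapg, a condensin subunit (-1.87, adjusted p = 0.043), and Sgo1, the protector of centromeric cohesion (-1.41, adjusted p = 0.036). Without KO replicate 4, 55 of the 57 fell, and with log2(CPM + 1) of Ddx3y as a covariate 52 fell. Without any other library none passed. The mean level of the list was -1.93, -1.52, -2.22 and 0.14 relative to the WT mean in KO replicates 1 to 4 on the log2 scale.

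DNA replication genes and cyclins showed a similar split among the KO libraries. The mean level of the DNA replication list in KO replicate 4 was -0.070 relative to the WT mean on the log2 scale. That was below every WT library (-0.032 to 0.059). Of 49 DNA replication and nucleotide supply genes 9 fell and none rose (median -0.76), 37 fell without KO replicate 4 and 10 without KO replicate 1, and 0 to 2 were called without any other library. Cdc6, a licensing factor of replication origins, was at 0.534, 0.626, 0.899 and 3.21 CPM in KO and at 5.01 to 5.76 CPM in WT (log2 fold change -1.58, SE 0.29, adjusted p = 0.015), so KO replicate 4 was also below WT here. Mcm2, a helicase subunit (adjusted p = 0.071), and Pcna, the polymerase clamp (adjusted p = 0.14), were not called with all 8 libraries. Of 20 cyclins, cyclin-dependent kinases and their direct regulators 4 fell, 15 fell without KO replicate 4, and 0 to 2 were called without any other library. Ccnd2, cyclin D2, was at 116, 163 and 147 CPM in KO replicates 1 to 3, with KO replicate 4 between these and the WT libraries at 284, 271, 294 and 242 CPM (log2 fold change -0.77, SE 0.18, adjusted p = 0.040). Pkmyt1, an inhibitory kinase of CDK1, fell by 1.06. Of 19 E2F and related regulators E2f1, Foxm1 and Tfdp1 fell, 3 in all, 11 without KO replicate 4, 4 without KO replicate 1 and 0 without any other library, and Mycn, a proto-oncogene of the Myc family that is not on these lists, was at 3.35, 2.96, 2.40 and 8.39 CPM in KO and 14.4 to 20.5 CPM in WT (log2 fold change -1.87, adjusted p = 0.0081).

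Inhibitors of the cell cycle changed singly. Cdkn1a, which encodes the CDK inhibitor p21, was at 122, 146, 101 and 92.4 CPM in KO and at 41.7, 34.9, 44.2 and 37 CPM in WT (log2 fold change 1.51, SE 0.15, adjusted p = 0.0015). KO replicate 4, at WT level for Mki67, lay above every WT library for Cdkn1a. Gadd45b, a stress-induced growth arrest gene, rose by 1.07 (adjusted p = 0.0078), whereas Trp53 and Plk2 fell by 0.53 and 0.75, which makes 2 called in each direction of 21 CDK inhibitor and p53 pathway genes (19%, beside 6.69% of all genes tested). Cdkn1c, encoding p57, had overlapping groups (adjusted p = 0.41). Of 22 apoptosis genes 1 rose and 1 fell (9.09%). The gene that rose was Bcl2l1, which encodes Bcl-xL (0.60, adjusted p = 0.016).

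**Figure D4:**
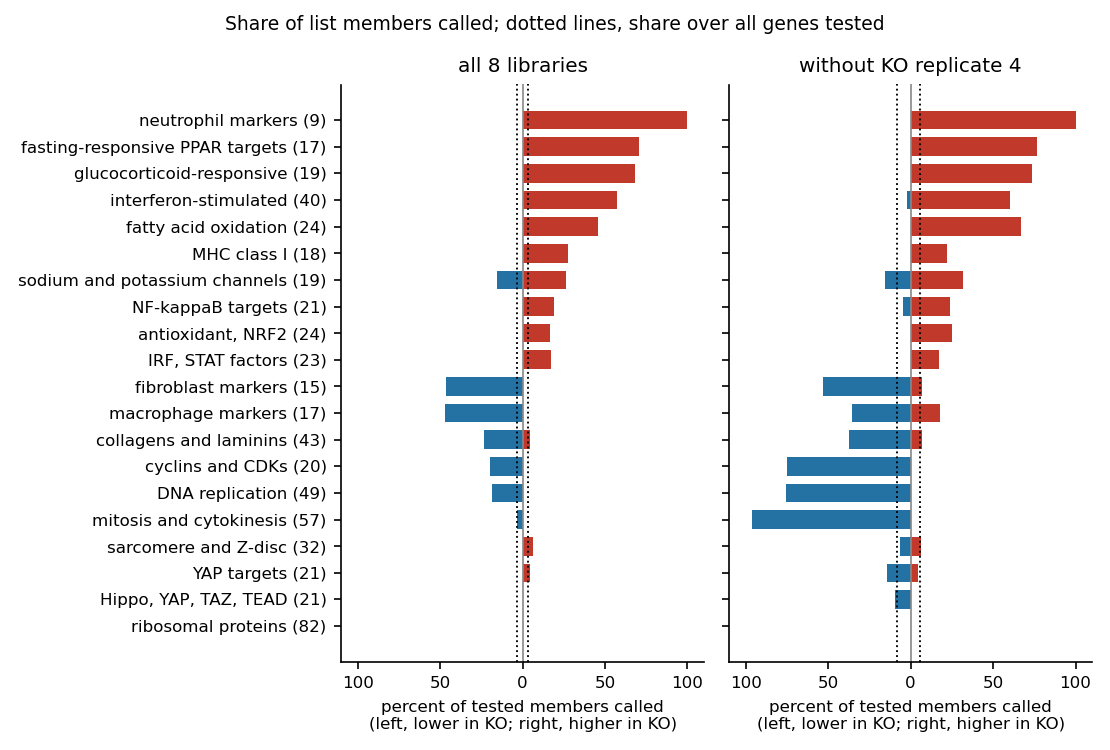
Percent of the tested members of each list (number in brackets) called higher (red, right) or lower (blue, left) in KO, with all 8 libraries and without KO replicate 4; dotted lines give the share over all genes tested. Mitosis genes go from 2 to 55 called of 57, and the glucocorticoid list from 13 to 14 of 19. The share of the 9 neutrophil markers is not comparable with the other lists, because 7 of them passed the filter through the KO libraries alone.

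With all 8 libraries no transcript of the Hippo pathway itself was called. Of 21 genes for Hippo kinases, their adapters, YAP, TAZ and the TEAD factors limma called none. At an unadjusted p under 0.05, 1 was higher and 6 lower, and edgeR's quasi-likelihood test called 1 and its exact test and DESeq2 2 each. Without KO replicate 4 limma called 0 higher and 2 lower, beside 2098 of 15598 genes tested. Without KO replicates 1 and 4 it called 2 higher and 4 lower, beside 3667 of 15598. Yap1 was at 47.9, 99.0, 50.1 and 49.7 CPM in KO and at 100.3, 103, 93.8 and 90.7 CPM in WT (log2 fold change -0.71, SE 0.22, adjusted p = 0.086). KO replicates 1, 3 and 4 lay below the WT libraries and KO replicate 2 among them, and without KO replicate 2 its adjusted p was 0.0040. Nf2, which encodes merlin, an upstream activator of the Hippo kinases, was at 130.3 to 157 CPM in KO and 139.8 to 149.6 CPM in WT (log2 fold change 0.01, adjusted p = 0.97). Of 21 YAP target genes Igfbp3, an IGF-binding protein, alone was called, at 50.0, 70.7, 85.5 and 31.7 CPM in KO and 15.8 to 20.4 CPM in WT (log2 fold change 1.55, SE 0.27, adjusted p = 0.012). Without KO replicate 4 the YAP target list had 1 gene higher and 3 lower, and without KO replicates 1 and 4 it had 3 higher and 3 lower. The matricellular targets Ccn1 and Ccn2, often read as YAP activity, had overlapping groups (log2 fold changes -0.13 and 0.14, adjusted p = 0.83 for both). In the IGF axis, which is linked to YAP in the heart, Igfbp5 rose by 0.96 (adjusted p = 0.0055) beside Igfbp3, 2 of 12 genes (16.7%, beside 6.69% of all genes tested), and Igf1 (adjusted p = 0.14) and Igf2 (adjusted p = 0.60) were not called. Among 14 imprinted growth genes Mest, expressed in growing tissues before and after birth, was at 90.3, 75.5, 60.4 and 166 CPM in KO and 238 to 288 CPM in WT (log2 fold change -1.49, SE 0.27, adjusted p = 0.013), and the noncoding RNA Rian fell by 0.63.

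Genes of the disc and the contractile apparatus were called about as often as all genes tested (6.69%), with 2 of 22 intercalated disc genes (9.09%) and 2 of 32 sarcomere and Z-disc genes (6.25%). The disc genes called were Xirp2 and Gja1. Xirp2 is the targeted gene, so its call was fixed by the design and Gja1 was the only other call. Gja1, connexin 43 of the gap junction, was at 451, 479 and 438 CPM in KO replicates 2 to 4, lower still in KO replicate 1, and at 651, 710.0, 572 and 539.9 CPM in WT (log2 fold change -0.51, SE 0.12, adjusted p = 0.043), a call that held in 2 of the 8 fits leaving out 1 library. Cdh2, N-cadherin of the disc, was not called (log2 fold change 0.04, adjusted p = 0.94). Of the sarcomere genes Tnnt2, cardiac troponin T, was at 12441, 8787, 9736 and 7980.1 CPM in KO and 6159 to 6663 CPM in WT (log2 fold change 0.60, SE 0.15, adjusted p = 0.045), and Myoz2, calsarcin-1 of the Z-disc, rose by 0.72 (adjusted p = 0.012). Myh6, adult α-myosin heavy chain, was higher in each KO library (31197 to 37791 CPM) than in any WT library (27071 to 30648 CPM) without a call (adjusted p = 0.33). Of 16 fetal isoform and stress genes Ccnd2 alone was called, and Nppa (40.1 to 243 CPM in KO, 51.4 to 104 CPM in WT) and Nppb (6.39 to 98.1 CPM in KO, 58.6 to 146 CPM in WT), the natriuretic peptide genes, had overlapping groups. The medians of the sarcomere (0.12), adult isoform (0.09) and calcium handling (0.03) lists became -0.02, -0.04 and -0.11 under the scaling to an equal sum.

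Of 19 sodium and potassium channel genes tested 5 rose and 3 fell, and 1 to 9 were called when 1 library was left out, fewest without WT replicate 2. Kcnq1, the slow delayed rectifier channel, was at 92.6, 81.3, 77.5 and 87.0 CPM in KO and at 57.4, 53.9, 51.5 and 65.1 CPM in WT (log2 fold change 0.57, SE 0.11, adjusted p = 0.016). Kcnip2, the accessory subunit of the transient outward current, was at 66.4, 70.5, 53.5 and 65.7 CPM in KO and at 94.2, 97.9, 99.1 and 108 CPM in WT (log2 fold change -0.64, SE 0.11, adjusted p = 0.011), and Kcnd2, a pore subunit of the same current, fell by 0.84 while its paralog Kcnd3 rose by 0.61. Hcn2, a pacemaker channel, fell by 0.68. The calls for Kcnip2 held in all 8 fits leaving out 1 library, those for Kcnq1 and Kcnd2 in 5 and those for Kcnd3 and Hcn2 in 2. Of 23 calcium handling genes Pln, phospholamban, the inhibitor of the SERCA pump, was at 1575, 1557, 1694 and 1276 CPM in KO and at 339 to 1110.2 CPM in WT (log2 fold change 1.38, SE 0.34, adjusted p = 0.043), with wide spread among the WT libraries, and Cacna1h, a T-type calcium channel, rose by 0.61. Ryr2 and Atp2a2, the calcium release channel and the SERCA pump, were not called (adjusted p = 0.69 and 0.24). Of 22 cardiac transcription factors Gata6 was at 157, 189.8, 177 and 132 CPM in KO and 88.5 to 109 CPM in WT (log2 fold change 0.75, SE 0.13, adjusted p = 0.012) and Irx4 rose by 0.48, while Gata4 and Nkx2-5 were not called (adjusted p = 0.53 and 0.14). Calls made up 8.70% of the calcium handling list and 9.09% of the cardiac transcription factors, near the 6.69% of all genes tested. Of 12 cardiomyocyte markers 3 rose (Tnnt2, Pln and Irx4) and none fell (25%, beside 6.69% of all genes tested). Each of these calls held in 2 of the 8 fits leaving out 1 library, and scaling to an equal sum left 1 of the 12 called. Summed levels were 73751 to 99707 CPM in KO and 67908 to 76025 CPM in WT. The mean level of the list was 0.60 above the WT mean in KO replicate 1 on the log2 scale. It was 0.25, 0.26 and 0.25 above that mean in KO replicates 2 to 4.

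Single genes were called in other lists, where 2 calls make 14.3% of the immediate early and 13.3% of the hypoxia list, beside 6.69% of all genes tested. Among 14 immediate early genes Jun and Egr3 fell by 0.73 and 0.78, and the groups overlapped for Fos and Egr1. Of 23 cholesterol genes Stard4, a sterol transporter, alone was called (-0.94, adjusted p = 0.012). Of 27 genes of the integrated stress response limma called none (2 higher and 2 lower at an unadjusted p under 0.05), edgeR's quasi-likelihood test 0 and its exact test and DESeq2 1 each, with Atf4 at 87.2 to 140.1 CPM in KO and 96.6 to 102 CPM in WT. Of 15 hypoxia genes Slc2a1 and Bnip3 rose, and Vegfa (adjusted p = 0.64) and Egln3 (adjusted p = 0.97) had overlapping groups. No atrial, skeletal muscle, lung, Schwann cell or mesothelial marker that passed the filter was called by limma, and no liver marker passed it.

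Hearts of KO and WT pups that received AAV9 carrying GFP, 4 of each, give the same contrast in other animals and were normalised and tested in their own table, in 1 model whose spread was estimated over all 16 injected libraries. In that contrast 1993 of 14597 genes (13.7%) were called. Of the 1044 genes called in uninjected hearts 988 were tested there, 954 with the same direction, and 611 were called in the same direction and 0 in the opposite one. Over all 13734 genes tested in both, called or not, 9932 had the same direction. Xirp2 fell by 6.48 in the GFP hearts, Hif3a rose by 3.18 and Fkbp5 by 2.06. In those hearts 15 of 19 glucocorticoid genes, 12 of 17 fasting genes and 11 of 24 fatty acid oxidation genes rose, and 51 of 57 mitosis genes (median -1.19), 10 of 16 macrophage markers and 11 of 15 fibroblast markers fell. The interferon and MHC class I lists had different values in the GFP hearts, with 1 of 36 interferon genes higher (median -0.11) and 0 of 17 MHC class I genes called. In the GFP hearts the log2 fold change of Isg15 was 0.43 (adjusted p = 0.59), that of Iigp1 -0.54 (adjusted p = 0.64) and that of Lgals3bp, which rose by 1.58 in uninjected hearts, 0.12 (adjusted p = 0.84). Other genes that were called in uninjected but not in GFP hearts include Gja1 (0.21, adjusted p = 0.31) and Kcnip2 (0.03, adjusted p = 0.88). The difference between the tables was not tested, because they differ in read length, injection and normalisation.

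**Figure D5:**
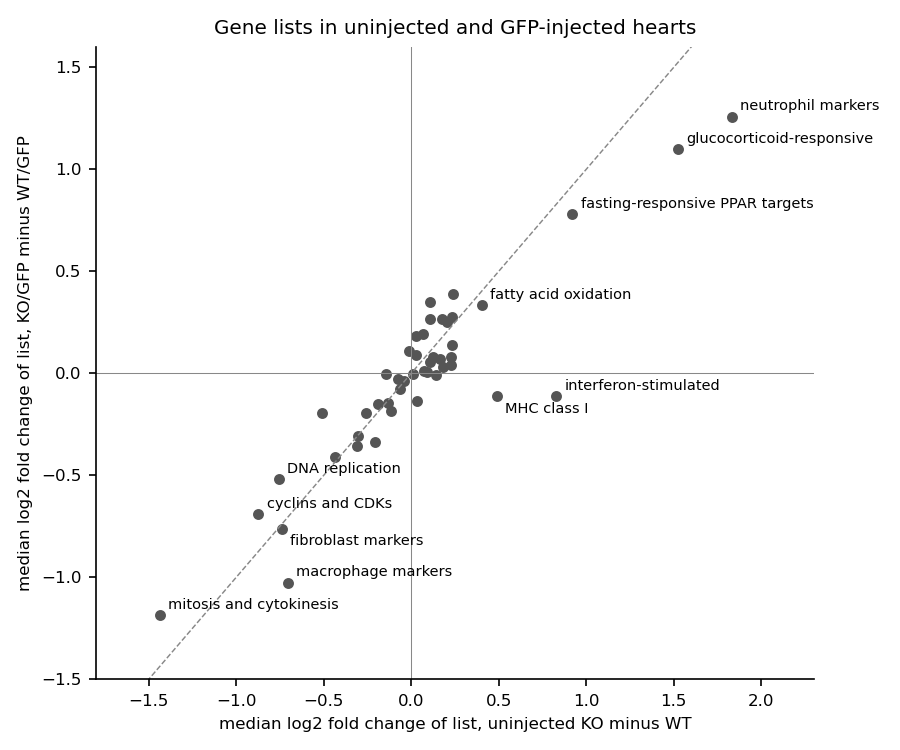
Median log2 fold change of each list with at least 9 tested members, for uninjected KO minus WT (horizontal axis) and KO/GFP minus WT/GFP (vertical axis), with a dashed line where both are equal. Most lists lie near the line, and the interferon list (0.83 and -0.11) and the MHC class I list (0.49 and -0.11) lie below it.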

How the data were processed

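Ventricular RNA from 8 uninjected hearts was sequenced as strand-specific poly(A) libraries (single-end, 50 bp), and the injected hearts separately (paired-end, 150 bp). Per the labels and the study's methods, trimming by the authors used cutadapt 2.3, alignment to GRCm38 used HISAT2 2.1.0, assembly and counting StringTie 1.3.4 and normalisation edgeR 3.26.1. The deposited values are a normalised signal, CPM, whose columns sum to 942566 to 1084066 in the uninjected hearts, so library sizes were scaled by a method not given in the sources used here. Of the values 100% were whole multiples of 1 read in each library (tolerance 0.1 read), and counts recovered so were used for alternatives only, since StringTie derives counts from coverage and read length.

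Genes over 1 CPM in at least 4 of the 8 libraries (injected table, 8 of 16) were tested as log2(CPM + 1) with limma 3.58.1 (eBayes with trend, R 4.3.3), with Benjamini-Hochberg adjustment at 0.05. In data simulated for this comparison over 15598 genes, 168 of 200 changed genes were called, with 4 false calls. The simulation gave all genes and both groups the same dispersion, set no library apart and changed only genes above a minimum level. The KO libraries varied more than the WT libraries (median SD 0.28 against 0.12), so these rates do not carry over to the real data. The 55 gene lists and the comparison were chosen with earlier results of these data known. Named genes were Xirp2 and Xirp1, the 15 largest rises and falls among called genes without overlap, the 10 smallest p, the 10 most abundant called genes, and from each list its first 2 members and up to 4 called per direction; some of these are not reported here, and any other gene was named after its values were seen. Alternatives were edgeR 4.0.16 (956 genes called by its quasi-likelihood test), DESeq2 1.42.0, other scalings, filters and pseudocounts, the replicate block, a Ddx3y covariate and leaving out libraries. The labels name separate samples and the study littermates; p-values measure the spread between these hearts. Hearts given activated YAP entered only the estimate of spread in the injected table. Closest replicates differed by far more than counting noise (chi-square per degree of freedom 12.5).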

Additional observations from a re-analysis of the deposited data

Results flagged for a closer look

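Each value here lay apart from the other 3 libraries of its group by Dixon's test for 4 values. The test looked at 336 gene and group pairs and 90 list and group pairs and set apart 22 and 6 of them. Chance alone marks about 1 in 20 of independent values. Most genes set apart were so in KO libraries, genes within a library vary together, and some were named after their values were seen. These totals therefore cannot show how many flags chance gave. KO replicate 4 was the highest KO library for the cell cycle genes Mki67 (238 CPM), Kif11 (40.9 CPM) and Cdc6 (3.21 CPM), for Mycn (8.39 CPM), the spindle gene Ska2 (4.62 CPM), the collagen gene Col14a1 (117 CPM) and the interferon-stimulated gene Ifit3 (12 CPM), and the lowest for the calcium channel gene Cacna1h (45 CPM). The interferon list was also highest in KO replicate 4, at 1.25 above the WT mean on the log2 scale. KO replicate 1 was the highest KO library for the lists of nuclear respiratory chain genes (0.78), ribosomal proteins (0.98) and cardiomyocyte markers (0.60), for Cxcr4 (3.55 CPM), Egr1 (32.4 CPM), Fos (9.13 CPM) and Islr (38.1 CPM), and the lowest for Pecam1 (256 CPM). In KO replicate 3 C3 (43 CPM), Hp (20.9 CPM), Serpina3g (27.3 CPM) and Serpina3n (46 CPM) were highest, and in KO replicate 2 Yap1 was (99.0 CPM). Among WT libraries Icam1 was highest in replicate 3 (11.1 CPM), Ifit1 in replicate 1 (1.45 CPM) and Irf7 in replicate 4 (5.03 CPM), Xirp1 was lowest in replicate 3 (226 CPM), the YAP target list in replicate 1 (-0.079) and the antioxidant list in replicate 2 (-0.15). What set these libraries apart was not tested. Genome-wide, 2 genes had groups without overlap in opposite directions in uninjected and GFP-injected hearts, a difference that was not tested.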

How the results depend on the processing

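The share of tested genes called, 6.69% (1044 genes), became 10.2% (1594) with every library scaled to an equal sum, 29.3% (4569) with limma array weights, 12.6% (1955) with DESeq2 on recovered reads, 12.4% (1927) with the Ddx3y level as a covariate and 2.36% (197 higher and 171 lower) with a change of at least 1 on the log2 scale also required. Leaving out 1 library moved the count by over 1.5 times in all 8 cases, to 1761, 527, 607 and 2098 genes without KO replicates 1 to 4 and 379, 444, 410 and 513 without WT replicates 1 to 4 (2.43% to 13.5%). With KO replicates 1 and 4 both left out, an alternative chosen after seeing the data, it was 23.5% (3667), and with each library's trend on transcript length removed, also chosen then, 1560 genes. Other filters, pseudocounts, size factors, quantile normalisation, limma without the trend and both edgeR tests gave 817 to 1514 genes. The labels join same-numbered KO and WT hearts by number only and do not give the litter of a heart, so litters were not modelled. The deviations of same-numbered hearts had correlations of -0.19, 0.098, -0.13 and -0.095, which cannot show whether hearts shared a litter. With the replicate block 2.47% were called (201 higher and 184 lower). In GFP hearts 13.7% (1993) became 6.37% (930) in a fit of the 8 GFP libraries alone, and 8.65% to 18.9% when 1 library was left out, lowest without KO/GFP replicate 1 (1263) or 4 (1262). Xirp2 was called lower in every alternative. Of 130 called genes named in the text 73 were called in every one of their alternatives, and none changed sign while called; of 2934 values of these genes under alternatives 2616 stayed called. Counts for the lists moved by over 1.5 times in 435 of 1242 cases. With 4 hearts per group and 2 KO hearts unlike the rest, changes below about the KO spread were not detectable, and the lack of a call does not show an equal level.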

Other observations

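The following genes lie outside the lists and the rule for named genes and were chosen after their values were seen, so they are given as values with no reading of what they share. Cp, which encodes the copper carrier ceruloplasmin, was at 49, 68.5, 117 and 59.4 CPM in KO and 17.2 to 20.1 CPM in WT (log2 fold change 1.86, SE 0.23, adjusted p = 0.0035), Lrg1 rose by 1.75 and Lbp, the lipopolysaccharide-binding protein, by 1.62. Hp, haptoglobin, was at 6.07, 5.27, 20.9 and 3.82 CPM in KO and at most 0.920 CPM in WT. KO replicate 3 was the highest library for Cp, Lbp, Lrg1 and Hp, as it was for Serpina3n and C3. Agt, angiotensinogen, was at 20.2, 25.5, 30.4 and 10.9 CPM in KO and 2.24 to 3.82 CPM in WT (log2 fold change 2.45, SE 0.28, adjusted p = 0.0025). Myc rose by 1.23, from 5.61 to 9.19 CPM in WT to 13.4 to 20.5 CPM in KO, while its paralog Mycn fell. Myzap, which encodes an intercalated disc protein that was not on the disc list, was at 438, 458, 486 and 386 CPM in KO and 287 to 309 CPM in WT (log2 fold change 0.56, adjusted p = 0.011).

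Among genes that fell, Cma1, a chymase of mast cells, was at 0 in all 4 KO libraries and at 2.46, 3.51, 1.33 and 2.76 CPM in WT, at least 18.8-fold lower in KO at a floor of 3 reads per library, beside the mast cell tryptase gene Tpsb2. Stfa2, a stefin of myeloid cells, had the reverse, with 2.17 to 5.29 CPM in KO and 0 in all 4 WT libraries (at least 31.9-fold higher). These 3 were the called genes listed at 0 throughout 1 group. Igkc, the immunoglobulin κ constant region, was at most 0.146 CPM in KO and 1.53 to 3.08 CPM in WT, and Cd74, the invariant chain of MHC class II, fell by 1.48 (adjusted p = 0.0015) while class I genes rose. The chemokine gene Cxcl12 was at 70.5 to 87.0 CPM in KO and 147 to 159 CPM in WT (log2 fold change -0.94, SE 0.09, adjusted p = 0.0015) and its receptor gene Cxcr4 at 2.50 to 3.55 CPM in KO and 6.99 to 11.5 CPM in WT (log2 fold change -1.46, SE 0.17, adjusted p = 0.0026). For both no KO library reached a WT library, KO replicate 4 included. Nos2, inducible nitric oxide synthase, was at 4.05 to 6.46 CPM in KO and 17.6 to 24 CPM in WT (adjusted p = 8.6e-04).

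By transcript length 3.70% of the shortest of 4 equal classes of genes and 7.24% of the longest class were called, and the median log2 fold change of those classes was 0.10 and -0.10 with all KO libraries and -0.02 and 0.02 without KO replicate 1. Relative to WT, KO replicate 4 had moved by a median of 0.72 of the other KO libraries' mean shift over the 1044 called genes (0.67 for genes called higher and 0.77 for genes called lower), where the other KO libraries had fractions of 1.04 to 1.21; the genes were called with this library included. Of 114 tested genes that passed the filter on low values through 1 group alone 90 were called. Of the genes in this section, Hp and Stfa2 passed through the KO libraries alone and Igkc and Cma1 through the WT libraries alone.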
